A study of Mus musculus with 4 samples.

Results

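Chaperonins are double-ring chambers in which newly made or imported proteins fold, and the mouse genome encodes one kind for the cytosol and one for mitochondria. The genes described here are the 8 subunits of the cytosolic chaperonin TRiC/CCT (*Tcp1*, *Cct2*, *Cct3*, *Cct4*, *Cct5*, *Cct6a*, *Cct7* and *Cct8*) and the mitochondrial pair HSP60 (*Hspd1*) and HSP10 (*Hspe1*). They were taken by name and make up 10 of the 46095 gene symbols in the count table. Stomach RNA was sequenced from 12-week-old mice on a C57BL/6 background, with 2 WT and 2 *Atp4b-cre; MycOE* samples. WT mice were *Mycfl/fl* littermates, and so carried the floxed allele without Cre. The transgenic mice carried *Atp4b-cre*, which is active in the parietal cell lineage, and 1 floxed copy of a human *c-Myc* transgene. The labels give the tissue as stomach and name no region or layer, so every value averages parietal cells, the lineage that Cre targets, with whatever other cells the samples held.

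In TRiC/CCT each ring holds the 8 related subunits side by side, and the chamber closes over actin, tubulin and many WD40-repeat proteins as they fold. Prefoldin hands unfolded chains to TRiC/CCT, and phosducin-like proteins work with it on some of them. In mitochondria, HSP60 forms the barrel and HSP10 its lid, and they fold proteins that mitochondrial HSP70 has drawn in through the import channel. Both chaperonins are abundant in cells that make much protein, and several of their genes are known MYC targets in other cells.

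Sequences from the 5′ side of these genes are shown because *Hspd1* and *Hspe1* moved together and lie head to head on mouse chromosome 1, where 112 bases of their annotated exons overlap. RefSeq promoter windows of the assembly GRCm38.p6 run from 250 bases before to 50 after a start, and 12 of them matched 9 of the 10 genes. *Cct4* is named only. In the first line capitals mark a run of 4 alternating heat shock units, made of 2 copies of TTCNNGAA parted by 2 bases, on the plus strand at chr1:55088053-55088082. It ends 72 bases before the start of *Hspe1*, on the plus strand, and 127 bases before the nearer of 2 *Hspd1* starts, on the minus strand. In the second line, from the minus strand at chr1:55088306-55088335, capitals mark an E-box, CACGTG, which lies 75 bases before the other *Hspd1* start and 170 bases inside *Hspe1*. The next 2 lines are the 80 bases before the start of *Cct2*, on the minus strand at chr10:117063853-117063932, and of *Cct7*, on the plus strand at chr6:85451425-85451504. These were the TRiC/CCT genes with a window in which none of the 80 bases lies in an annotated exon of any gene. *Cct2* also had the highest level per length of the subunits and *Cct7* the smallest change. In both lines capitals mark GGGCGG or CCGGAAG in either orientation.
Hspd1 and Hspe1, heat shock units: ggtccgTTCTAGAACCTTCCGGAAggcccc
Hspd1 and Hspe1, E-box: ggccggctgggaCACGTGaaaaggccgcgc
Cct2: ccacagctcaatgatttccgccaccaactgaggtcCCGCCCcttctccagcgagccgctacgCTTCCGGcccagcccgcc
Cct7: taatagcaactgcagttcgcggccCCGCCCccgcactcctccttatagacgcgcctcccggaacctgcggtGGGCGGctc

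Motifs were searched on both strands of the 12 windows and of all 32851 windows of the same length. GGGCGG, the letters bound by SP1-type factors, was found in 11 of the 12 windows and in 35.7% of all windows. CCGGAAG, an ETS-type motif, was found in windows of *Tcp1*, *Cct2*, *Cct8*, *Hspd1* and *Hspe1*, against 8.86% of all windows. CCAAT was found for *Tcp1*, *Cct3*, *Cct6a*, *Cct7* and *Hspd1*, and in 37.4% of all windows. The E-box CACGTG, the letters to which MYC with its partner MAX binds, was found in 1 of the 12 windows, that of the upstream *Hspd1* start, and in 7.15% of all windows. The full heat shock run was found in 5 of all 32851 windows. Of these, 2 were the *Hspd1* and *Hspe1* windows, which share the same site. Its parts TTCNNGAA, in 8.52% of all windows, and GAANNTTC, in 7.86%, overlap in that site, as does CCGGAAG. TTCNNGAA alone was also found for *Cct5* and *Cct6a*, and GAANNTTC for *Cct2*. Each match is a description of letters in these windows only.

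Each value rested on a total of 30260305 to 41463647 counts per sample, and the 10 chaperonin genes held 48956 to 134623 of them. The chi-square of counts within a genotype was 28.9 per degree of freedom in WT and 97.9 in the transgenic pair, well above sampling noise, so all 4 samples were kept. WT replicate 2 stood apart from the other 3 samples in the genes that mark sex. It had 17846 counts of *Xist* and 5 of the Y-linked gene *Ddx3y*, while the others had 85 to 201 and 1861 to 2623. Of the parietal cell markers, 9 of 9 fell in the transgenic samples, *Atp4b* among them, from 2610 and 2490 to 38.4 and 51.7 normalized CPM, the count scaled to a common library size. The stomach label was checked against chief and mucous cell markers too, and *Pgc*, *Muc5ac* and *Gkn1* were all present in WT.

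The pairing of names and counts had to be settled before the chaperonins could be read. As deposited, the names are in an order that ignores case, while the counts in both transgenic columns follow the order of character codes, with capitals first. Beside *Hspd1*, *Hspe1* and *Cct8* the transgenic columns as deposited held 0 counts in both samples. The 0 counts belong to the names *Hspd1-ps1*, *Hspe1-ps1* and *Cct3-ps1*. Beside *Cct7* stood 8007 and 11531, which are the counts of *Cct3*. None of the 10 genes was on its own line, and 3109 of the 46095 rows (6.74%) were.

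Over the 61 rows around each chaperonin gene, r between the genotypes was 0.0693 to 0.418 as deposited and 0.940 to 0.987 once the transgenic counts were given to the names in order of character codes. These correlations run across genes, which are not independent replicates. Across all rows the value rose from 0.526 to 0.984, next to 0.986 within the WT pair. All values from here on use the re-sorted rows, and the row order alone decides the direction of 9 of the 10 genes. Under the deposited order those 9 would be called lower in the transgenic samples, in a table where 42.7% of the genes tested were called higher and 41.5% lower.

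**Figure D1:**
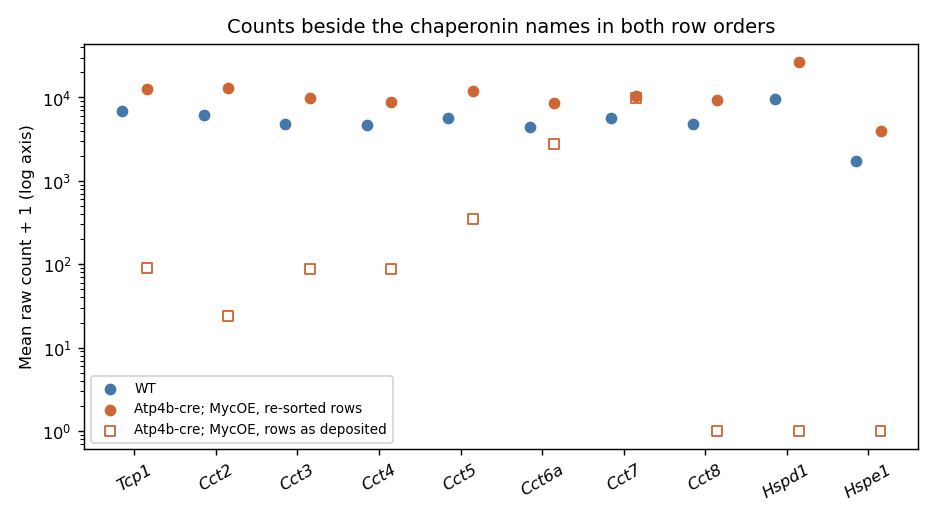
Mean raw counts plus 1 (log axis) beside each chaperonin name, for WT (blue), for transgenic samples after re-sorting (filled orange) and for transgenic samples as deposited (open squares). As deposited, *Cct8*, *Hspd1* and *Hspe1* sit at 0 counts, and re-sorted counts lie above WT for all 10 genes.

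The question was whether the folding machinery of cytosol and mitochondria differed between the stomachs of *c-Myc* transgenic and WT mice. Chaperonin mRNA was higher in the transgenic stomachs for all 10 genes, with both transgenic samples above both WT samples in each, whereas 33.3% of the 17643 genes tested separated this way and 31.5% the other way. A gene was said to rise or fall when its adjusted p was under 0.05 and its fold change over 1.5 in edgeR's quasi-likelihood test with Benjamini-Hochberg adjustment. By this rule 7 of the 10 rose and none fell, while of all genes tested 5.65% rose and 5.08% fell. On the p threshold alone all 10 were higher, against 6.98% of all genes. DESeq2 called 6 of the 10 higher, next to 8.38% of the genes it tested. Among the 2804 genes at least as abundant as the lowest chaperonin gene, 6.88% rose and 33.7% separated upward. The 7 were *Hspd1*, *Hspe1*, *Cct5*, *Cct2*, *Cct3*, *Cct6a* and *Cct8*. Together the 10 genes took 0.164% and 0.162% of all counts in WT and 0.302% and 0.325% in the transgenic samples.

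*Hspd1*, the barrel of the mitochondrial chaperonin, had the largest change. It stood at 315 and 305 normalized CPM in WT and at 620 and 709 in the transgenic samples. The lower transgenic sample was thus far above the higher WT sample, and the transgenic samples were further apart from each other than the WT samples were. The means were 310 ± 6.97 and 664 ± 63.1 (SD, n = 2 per genotype), a 2.14-fold rise. The log2 fold change was 1.10 with a standard error of 0.11 and an adjusted p of 0.0195 by edgeR's quasi-likelihood test. Of all genes tested, 6.47% had a larger rise. The same share was 10.5% for *Hspe1* and ran from 13.2% for *Cct5* to 19.2% for *Cct7* among the TRiC/CCT subunits.

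*Hspe1*, the lid of the same chamber, read 57.0 and 56.8 normalized CPM in WT and 98.8 and 103 in the transgenic samples. Replicates were close to each other in both genotypes, and the gap between genotypes was many times wider. The log2 fold change was 0.83 with a standard error of 0.075, a 1.77-fold rise, at an adjusted p of 0.0188 by edgeR's quasi-likelihood test. *Hspd1* and *Hspe1* are transcribed in opposite directions, with the heat shock run shown above between their nearer starts. Within each sample, *Hspd1* exceeded *Hspe1* by 2.47 and 2.43 on the log2 scale in WT and by 2.65 and 2.78 in the transgenic samples. The barrel gene therefore gained more than the lid gene, by 0.27 between the genotype means, and the ratios of the 2 genotypes did not overlap.

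*Cct5* and *Cct2* had the largest changes among the TRiC/CCT subunits. *Cct5* read 179 and 186 normalized CPM in WT and 289 and 310 in the transgenic samples (log2 fold change 0.71, standard error 0.085, adjusted p = 0.0234, edgeR's quasi-likelihood test). *Cct2* read 206 and 197 in WT and 318 and 336 in the transgenic samples (log2 fold change 0.70, standard error 0.085, adjusted p = 0.0236, edgeR). Both genes rose by about the same factor, 1.64-fold and 1.62-fold. *Cct3* had 156 and 154 normalized CPM in WT and 236 and 258 in the transgenic samples, a 1.59-fold rise with an adjusted p of 0.0262 by edgeR. Its WT samples were nearly equal, and its transgenic samples were further apart than those of *Cct5*.

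*Cct6a* and *Cct8* rose least among the subunits that passed. *Cct6a* was at 141 and 145 normalized CPM in WT and at 219 and 219 in the transgenic samples, with a log2 fold change of 0.62 and an adjusted p of 0.0243 by edgeR. *Cct8* was at 151 and 163 in WT and at 231 and 241 in the transgenic samples, with a log2 fold change of 0.59 and an adjusted p of 0.0303 by edgeR. *Cct8* was the gene just above the fold change threshold, and with DESeq2, with the size factors of DESeq2, without transgenic replicate 2 or without WT replicate 1 it lay below that threshold, at 0.58, 0.57, 0.56 and 0.54.

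*Tcp1*, *Cct4* and *Cct7* met the p threshold and missed the fold change threshold. *Tcp1*, the first subunit to be described and the one that gave the complex its name, read 226 and 217 normalized CPM in WT and 317 and 332 in the transgenic samples. Its log2 fold change was 0.55 with a standard error of 0.082 and an adjusted p of 0.0316 by edgeR. *Cct4* read 153 and 154 in WT and 215 and 234 in the transgenic samples, with the same log2 fold change of 0.55 and an adjusted p of 0.0329 by edgeR. *Cct7* read 186 and 178 in WT and 253 and 271 in the transgenic samples, with a log2 fold change of 0.53 and an adjusted p of 0.0352 by edgeR. In all 3 genes, and in *Cct8*, *Cct6a* and *Cct3* on the other side, the distance from the fold change threshold was smaller than the standard error of the gene.

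**Figure D2:**
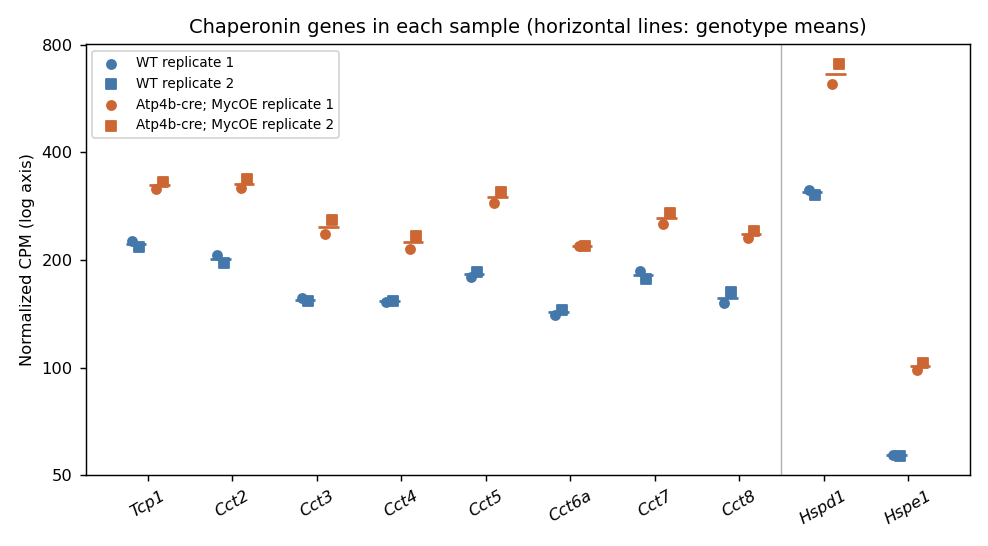
Normalized CPM (log axis) of each chaperonin gene in the 4 samples, with WT in blue, *Atp4b-cre; MycOE* in orange, circles for replicate 1, squares for replicate 2 and a line at each genotype mean. Transgenic points lie above WT points for every gene, with the widest gap at *Hspd1*.

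Counts alone do not tell fewer cells of a type from less RNA per cell in bulk tissue, and this holds for each level given here. Chaperonin mRNA differed along with the makeup of the tissue. Summed over their lists, parietal markers went from 12288 and 12499 normalized CPM in WT to 516 and 557, and chief cell markers from 84893 and 80528 to 1210 and 1522. Among chief cell markers 4 of 6 fell, and among mucous cell markers 4 of 6 fell. Removing parietal, chief and pancreatic acinar markers from the counts before scaling, which bears on the scaling only, again left 7 chaperonin genes passing, with log2 fold changes of 0.53 to 1.10. The part of cell makeup in the chaperonin rise was not tested.

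The size of the change depended in part on the scaling between samples. With library size alone, all 10 chaperonin genes passed, next to 12.9% of all genes higher, with log2 fold changes of 0.75 to 1.32, but the median of all genes tested then stood at 0.23 instead of 0.01. The calls did not hold without either WT replicate, where 1 WT sample was left. The chaperonin genes then had log2 fold changes of 0.54 to 1.12 without replicate 1 and 0.49 to 1.07 without replicate 2. Their log2 fold changes stayed between 0.47 and 1.19 whichever sample was left out, WT replicate 2 included.

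**Figure D3:**
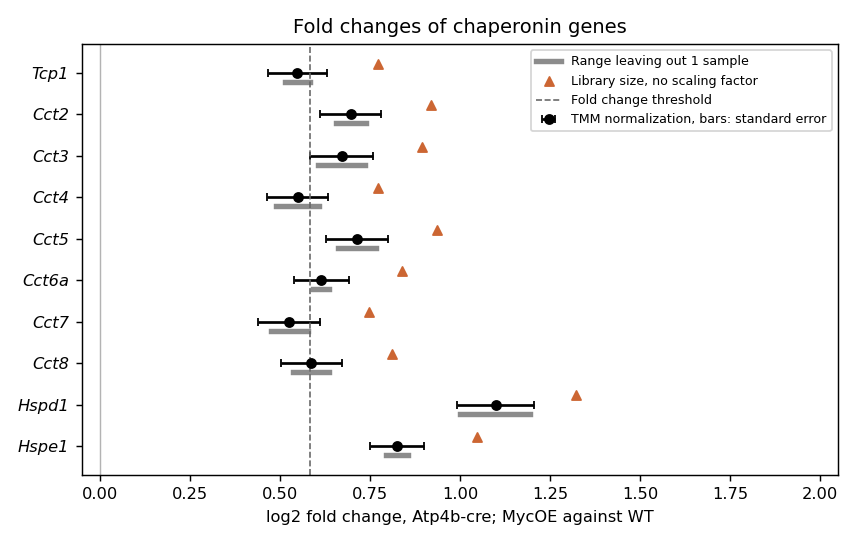
Log2 fold changes of the chaperonin genes, *Atp4b-cre; MycOE* against WT, with standard errors (black), the range when 1 sample is left out (grey bars) and the value with library size alone (orange triangles). The dashed line is the fold change threshold of 1.5, and *Tcp1*, *Cct4* and *Cct7* lie to its left.

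Since every TRiC/CCT ring holds 1 copy of each subunit, levels among the subunits were compared per length. CPM were divided by the length of the principal coding transcript in GENCODE M21, which gives no such transcript for *Cct6a*. *Cct2* led with 103 ± 3.53 CPM per kb in WT and 167 ± 6.76 in the transgenic samples (SD, n = 2). *Cct5* followed with 98.5 ± 2.47 and 162 ± 8.17. *Tcp1* stood at 90.6 ± 2.53 and 133 ± 4.31, and *Cct3* at 78.5 ± 0.964 and 125 ± 7.89. *Cct7* (74.6 ± 2.55 and 107 ± 5.38), *Cct8* (65.6 ± 3.33 and 98.6 ± 2.90) and *Cct4* (61.8 ± 0.190 and 90.4 ± 5.30) closed the order.

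This order was the same in all 4 samples, with the highest subunit 1.62 to 1.87 times the lowest. *Cct2* and *Cct5* overlapped in the transgenic samples, as did *Tcp1* and *Cct3*, and the other neighbours did not overlap in either genotype. The order depended on the length used. With the union of all annotated exons, *Cct2* and *Cct5* again led, *Cct3* and *Cct7* came last and the ratio of highest to lowest was 3.19 to 3.35. On the transcript scale the mitochondrial *Hspd1* had 128 ± 2.88 CPM per kb in WT and 274 ± 26.03 in the transgenic samples, above all 7 subunits placed. *Hspe1*, whose protein of 102 residues is far shorter than the 573 of *Hspd1*, had 73.5 ± 0.233 and 130 ± 3.84.

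The 8 TRiC/CCT subunits moved almost as a block. Measured as the log2 CPM of a subunit minus the mean of all 8 in the same sample, no subunit shifted between genotype means by more than 0.10, with *Cct5* at 0.10 and *Cct7* at -0.09 as the extremes. The SD of log2 CPM over the 8 subunits was 0.241 and 0.201 in WT and 0.230 and 0.237 in the transgenic samples. The mitochondrial pair shifted further. *Hspd1* lay 0.87 and 0.82 above the mean subunit on the log2 scale in WT and 1.27 and 1.38 above it in the transgenic samples. *Hspe1* lay at -1.60 in both WT samples and at -1.38 and -1.40 in the transgenic samples. In both genes the genotypes did not overlap, and the shifts of 0.48 and 0.21 were wider than that of any subunit. These differences within samples do not depend on the scaling factor and were not tested.

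In genomic order, by GENCODE M21 coordinates (mm10), the 10 genes lie on 9 chromosomes: *Hspd1* at chr1:55077835-55088243 (minus strand) and *Hspe1* at chr1:55088132-55091307 (plus), *Cct3* at chr3:88297116-88321767 (plus) and *Cct6a* at chr5:129786998-129846371 (plus). *Cct7* lies at chr6:85451514-85468475 (plus), *Cct2* at chr10:117051001-117063814 (minus), *Cct4* at chr11:22990519-23003780 (plus) and *Cct5* at chr15:31590800-31601804 (minus). *Cct8* lies at chr16:87483326-87495873 (minus) and *Tcp1* at chr17:12915701-12925067 (plus).

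Some reads could belong to other genes. *Hspd1-ps3*, a row named as a pseudogene of *Hspd1*, held 198 and 216 counts in WT and 355 and 613 in the transgenic samples, and the *Hspd1* copies together amounted to 1.69% to 2.55% of *Hspd1* itself. Adding these copies left the log2 fold change of *Hspd1* at 1.09. On the opposite strand, exons of *Tcp1* overlap *Acat3* by 571 bases and *Mrpl18* by 141, those of *Cct6a* overlap *Psph* by 452, those of *Cct7* overlap *Pradc1* by 214, and those of *Cct8* overlap *Usp16* by 192. Whether the counting used strand is not given in the sources used here, so reads in these stretches and in the 112 bases shared by *Hspd1* and *Hspe1* cannot be assigned.

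Turning to the partners that load TRiC/CCT, of 12 prefoldin, prefoldin-like and phosducin-like genes 11 were tested, 1 rose (9.09%, against 5.65% of all genes) and none fell, and their median log2 fold change was 0.10, next to 0.60 for the 8 subunits and 0.01 for all genes tested. With library size alone 3 rose, and without either transgenic sample none did. *Pfdn2*, a prefoldin subunit, was the one that rose, from 23.1 and 19.6 normalized CPM in WT to 36.5 and 36.02 (log2 fold change 0.76, standard error 0.13, adjusted p = 0.0367, edgeR). *Vbp1*, another prefoldin subunit, had a log2 fold change of 0.19 (adjusted p = 0.289, edgeR). *Pdcl* and *Pdcl3*, the phosducin-like partners, had -0.12 and 0.10 (adjusted p = 0.521 and 0.529, edgeR), with overlapping genotypes in both.

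Among 22 TRiC/CCT clients, 3 rose (13.6%, against 5.65% of all genes) and none fell, with a median log2 fold change of 0.16. The 3 became 6 with library size alone and 1 without transgenic replicate 1. Without transgenic replicate 2, 3 rose and 2 fell, and 1 fell by DESeq2 or with no filter on low counts. *Actb*, the actin that is its classic client, read 3275 and 2952 normalized CPM in WT and 2790 and 3186 in the transgenic samples, and the genotypes overlapped. Tubulins differed among themselves. *Tubb5* rose (log2 fold change 0.61, adjusted p = 0.0314, edgeR), and *Tuba1b* and *Tuba1c* had 0.50 and 0.48 and passed the p threshold only (adjusted p = 0.0327 and 0.0395, edgeR). *Tubb4b* and *Tuba4a* had 0.32 and 0.31 and did not pass (adjusted p = 0.0887 and 0.217, edgeR), and in all 5 both transgenic samples lay above both WT samples. In the opposite direction, *Tuba1a*, *Tubb2a*, *Tubb2b*, *Tubb3* and *Tubb6* had log2 fold changes of -0.94 to -0.48, with both transgenic samples below both WT samples, and none passed (adjusted p of 0.0718 to 0.231, edgeR). *Tubg1* had 0.20 with overlapping genotypes (adjusted p = 0.439, edgeR). Of all genes tested, 33.3% separated upward in this way and 31.5% downward. The other 2 clients that rose were the cell cycle proteins *Ccne1*, cyclin E, with a log2 fold change of 1.12, and *Cdc20*, an activator of the anaphase-promoting complex, which went from 21.8 and 24.8 normalized CPM to 53.4 and 39.6 (adjusted p = 0.0443 and 0.0425, edgeR). In 12 proliferation genes 4 rose as well, led by *Ccnb1* (0.98) and *Aurkb* (0.94), at adjusted p of 0.0431 and 0.0395 by edgeR. The median of that list was 0.75, and the count depended on the setting, with 0 of 12 without transgenic replicate 1, 8 without transgenic replicate 2, 8 by DESeq2 and 11 with library size alone.

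Of 4 chaperonin-like genes 3 were tested and none passed. *Cct6b*, the testis-type relative of *Cct6a*, was counted 2 and 7 times in WT against 15 and 10 in transgenic stomach and fell under the filter on low counts. The genes tested were *Mkks*, *Bbs10* and *Bbs12*, which act in assembly of the BBSome. *Mkks* had 35.9 and 40.0 normalized CPM in WT and 33.9 and 38.2 in the transgenic samples. *Bbs10* had 1.43 and 0.932 in WT and 2.005 and 2.73 in the transgenic samples, and *Bbs12* had 1.37 and 1.18 against 3.30 and 2.06. In *Bbs10* and *Bbs12* both transgenic samples lay above both WT samples, with adjusted p of 0.171 and 0.145 by edgeR, and the median log2 fold change of the 3 genes was 0.9995.

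The cytosolic HSP70, HSP90 and HSP40 systems, which fold proteins outside a chamber, gave a mixed picture. Of 22 genes tested none rose and 1 fell, with a median log2 fold change of 0.19. This turned on single samples and on scaling. Without transgenic replicate 1, 6 rose and none fell, with a median of 0.32, and without transgenic replicate 2 none rose, 1 fell and the median was -0.02. Over all genes, 781 of 18580 rose and 832 fell without transgenic replicate 1, and 1064 of 18289 rose and 1406 fell without transgenic replicate 2. With library size alone 6 rose and 1 fell. *Hspa8*, the constitutive HSP70, read 1437 and 1568 normalized CPM in WT and 886 and 1320 in the transgenic samples (log2 fold change -0.45, adjusted p = 0.234, edgeR). *Hspa1b*, a heat-inducible HSP70, fell by 2.74 on the log2 scale from 2.32 and 1.76 normalized CPM to 0.265 and 0.336 (adjusted p = 0.0330, edgeR), on 9 and 15 counts in the transgenic samples. *Hsp90ab1* had 1452 and 1560 in WT and 1993 and 2615 in the transgenic samples, with a log2 fold change of 0.61 that missed the p threshold (adjusted p = 0.0847, edgeR). *Hsp90aa1*, the stress-responsive HSP90, went from 332 and 389 to 529 and 784, the highest log2 fold change of the list at 0.86, and missed the threshold too (adjusted p = 0.0760, edgeR). The heat shock factor *Hsf1* did not pass either (0.56, adjusted p = 0.0557, edgeR).

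Of 15 mitochondrial HSP70 and import genes 2 rose (13.3%, against 5.65% of all genes) and none fell, with a median log2 fold change of 0.29. With library size alone 7 rose, without transgenic replicate 1 only 1 did and without transgenic replicate 2 there were 3. On the p threshold alone *Timm44*, *Timm50* and *Tomm22* were higher too. Those that passed both thresholds were *Tomm70a*, an import receptor (0.70, adjusted p = 0.0333, edgeR), and *Tomm40*, the import channel of the outer membrane (0.68, adjusted p = 0.0447, edgeR). *Hspa9*, the mitochondrial HSP70 that works just before HSP60, read 463 and 389 normalized CPM in WT and 520 and 521 in the transgenic samples (0.29, adjusted p = 0.171, edgeR). *Grpel1*, its nucleotide exchange factor, had a log2 fold change of -0.04 (adjusted p = 0.820, edgeR), and *Trap1*, the mitochondrial HSP90, had 0.38 (adjusted p = 0.0530, edgeR).

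Of 10 mitochondrial protease and stress genes, 1 rose, next to 5.65% of all genes, and none did without transgenic replicate 1. The gene was *Htra2*, a protease of the intermembrane space, with a log2 fold change of 0.96 (adjusted p = 0.0350, edgeR). The matrix proteases *Lonp1* and *Clpp* had 0.18 and 0.31 (adjusted p = 0.178 and 0.108, edgeR). Among 16 genes for other mitochondrial proteins, such as citrate synthase and subunits of the respiratory chain, none passed both thresholds, and 14 had a negative log2 fold change, with a median of -0.32. Their summed level was 8558 and 8294 normalized CPM in WT and 6794 and 6939 in the transgenic samples, a direction opposite to that of *Hspd1* and *Hspe1*. With library size alone the median of these 16 genes was -0.10.

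**Figure D4:**
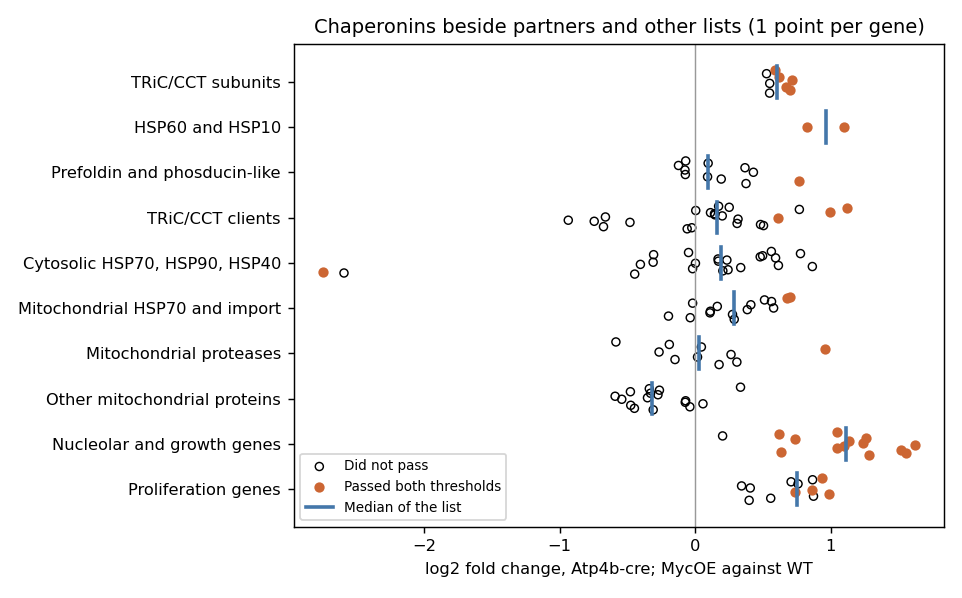
Log2 fold changes, *Atp4b-cre; MycOE* against WT, of single genes in the chaperonin lists, in their partner lists, in nucleolar and growth genes and in proliferation genes, with filled points for genes past both thresholds and a blue line at each list's median. Medians run from -0.32 for other mitochondrial proteins to 1.12 for nucleolar and growth genes.

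Most of the listed nucleolar and growth genes known as MYC targets rose. Of 14 such genes 13 rose (92.9%, against 5.65% of all genes), with a median log2 fold change of 1.12. The count was 11 without transgenic replicate 1. With the replicate number as a block it was 1, and 114 of all genes passed there. *Dkc1*, which modifies ribosomal RNA, had 1.62 and *Npm1*, a nucleolar chaperone, 1.55 (adjusted p = 0.0183 and 0.0102, edgeR). *Hspd1* with 1.10 lay near the median of this list, and all 8 TRiC/CCT subunits lay below it.

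The markers of other cell types were read in the same samples, since the tissue could hold them in unequal amounts. Leukocyte markers fell in 3 of 7 tested, from a summed 237 and 247 normalized CPM in WT to 101 and 94.1. The sum was mostly the myeloid genes *Lyz2* and *Csf1r*, which fell with *Itgam*, while *Ptprc*, *Cd3e* and *Cd68* had log2 fold changes of -0.04, 0.12 and -0.16. Of 16 pancreatic acinar markers 9 were tested and 4 fell, or 8 by DESeq2, the summed level going from 10000 and 8765 to 38.0 and 38.7, nearly all of it *Pla2g1b* in WT (9805 and 8607) and 18.9 and 21.4 of it in the transgenic samples, while *Cpa1*, *Prss2*, *Try4* and *Amy2a5* held 0 counts in all samples. Forestomach squamous markers (2443 and 1387 in WT, 818 and 4188 in the transgenic samples) and smooth muscle markers (8555 and 5433, 2828 and 5927) differed more between replicates than between genotypes, and none of either list passed, although 4 of 9 squamous markers rose without transgenic replicate 1. Summed mucous cell markers were 54752 and 65755 in WT and 30672 and 25860 in the transgenic samples. The surface mucous genes *Muc5ac*, *Gkn1*, *Gkn2* and *Tff1* fell, while the neck genes *Tff2* and *Muc6* had log2 fold changes of 0.53 and 0.13 and did not pass, and 1 of the 6 markers was called higher without transgenic replicate 2. The summed chaperonin level was 1772 and 1755 in WT and 2795 and 3014 in the transgenic samples, and the part of these cell types in it was not tested.

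The genes whose profile over the 4 samples was closest to the mean profile of the 10 chaperonin genes were *Rps2*, *Eif4b*, *Rps9*, *Metap2* and *Mrpl36*. Likeness was the Euclidean distance between log2 normalized CPM centred per gene, over the 6186 genes whose average log2 CPM reached 5, and it was 0.0114 for *Rps2* and 0.0360 for *Mrpl36*. With 4 samples in 2 genotypes, this distance reads little more than the size of the genotype difference. *Rps2* and *Rps9* encode proteins of the small ribosomal subunit, *Eif4b* a translation initiation factor, *Metap2* a methionine aminopeptidase and *Mrpl36* a mitochondrial ribosomal protein. All 5 rose, by 0.66 to 0.71 on the log2 scale. Of the chaperonin genes themselves, *Cct3* was nearest to the mean profile, at 0.0315, and *Hspd1* farthest, at 0.421, with 1199 other genes nearer than it.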

How the data were processed

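The authors deposited 1 table of raw counts, unnormalized, with 46095 gene symbols in rows and 1 column for each of the 4 stomach samples. The submitters' processing notes name HISAT2 and mm10, and the paper names DESeq2 for the authors' own comparison. The counting tool, the annotation, the strand setting and their versions are not given in the sources used here. Transgenic counts in row order were assigned to the names sorted by character code, which uses no count value.

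Genes were tested on the whole table with edgeR 4.0.16 in R 4.3.3 (glmQLFit and glmQLFTest with TMM, filterByExpr by genotype and genotype as the only term), with Benjamini-Hochberg adjustment over 17643 genes. Calls needed an adjusted p under 0.05 and a fold change over 1.5, the thresholds in the methods of the study. CPM were TMM-normalized, with the SD over 2 samples. The standard errors given with edgeR were derived from the test, as the absolute log2 fold change over the square root of the quasi-likelihood F. The labels do not say that replicates came from separate mice. The WT samples differed in sex-linked genes and so came from different mice, and for the transgenic pair p-values may measure a spread that is technical. The common dispersion had a square root of 0.295. Each chaperonin gene had at least 1584 counts in every sample, and the level of the transgene itself was not analysed here.

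The chaperonin genes and all gene lists were chosen with earlier results of these data known, and lists are described by counts and medians without a set test. Named besides the 10 genes were the 2 called genes with the largest absolute log2 fold change in each partner list, direct partners fixed by name, rows named as copies of the 10 genes, and the 5 nearest profiles. Cell type markers named were those that describe the tissue, and were picked with their values seen, as were *Hsf1*, *Hsp90aa1*, the other tubulins, the chaperonin-like genes and genes named for meeting the p threshold alone. The test was tested on simulated data, where it returned fold changes of the right sign and size but missed many of the changed genes, and all of those with the smaller change, so a gene that did not pass is not thereby unchanged. Alternatives were DESeq2 1.42.0, its size factors in edgeR, library size alone, other count filters, other thresholds, the replicate block, leaving out each sample, the deposited row order, removal of cell type markers and summed copies. Some items are not reported here.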

Additional observations from a re-analysis of the deposited data

How the results depend on the processing

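Against 7 chaperonin genes, 1892 of all genes and 25 list genes passing, DESeq2 gave 6, 3232 and 34, and library size alone gave 10, 3011 and 48, with 75.5% of calls higher in place of 52.6%. No fold change threshold gave 10 chaperonin genes, 2274 genes and 35 list genes, and an absolute log2 fold change above 1 gave 1, *Hspd1*, with 1113 and 12. Under the deposited row order 9 chaperonin genes passed as lower, with 18580 of all genes and 110 list genes called. The fitted log2 fold changes there were -6.50 for *Tcp1*, -8.29 for *Cct2*, -6.07 for *Cct3*, -6.07 for *Cct4*, -4.27 for *Cct5*, -0.95 for *Cct6a*, -15.39 for *Cct8*, -16.37 for *Hspd1* and -13.92 for *Hspe1*, the last 3 against counts of 0 and therefore no bound. Leaving out 1 sample gave 0 to 8 chaperonin genes, 0 to 2470 of all genes and 0 to 32 list genes. The 0 came without WT replicate 1 or 2, where the lone WT sample is assumed to vary like the other genotype and 3554 and 3410 genes had an unadjusted p under 0.05. With the replicate number as a block, 0 chaperonin genes, 114 genes and 1 list gene passed, and the chaperonin adjusted p were 0.0553 to 0.0850. Deviations of same-numbered samples correlated at r = 0.0634 across genes. This r cannot tell whether such samples share a batch or a pairing, which was not tested. No filter on low counts gave 2618 genes and kept 7 chaperonin genes, and the DESeq2 size factors gave 6. In all alternatives but the deposited row order, the log2 fold changes of all 10 chaperonin genes stayed positive. The effect of depth on the calls was not tested, and each chaperonin gene had at least 1584 counts per sample.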
